A study of Homo sapiens with 6 samples.

Results

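The aldo-keto reductases and glutathione transferases described here are 10 human genes picked by symbol: AKR1B1, AKR1B10, AKR1C1, AKR1C2, AKR1C3, GSTP1, GSTZ1, GSTO1, MGST1 and UGDH. All 10 were found among the 17318 genes listed for each library. They were measured as mRNA in SNU216, an established human gastric cancer cell line. For 48 h the cells carried either siControl, a control siRNA (3 libraries), or siOXTR, which targets OXTR, the gene of the oxytocin receptor (3 libraries). All cells were kept in RPMI1640 with fetal bovine serum and antibiotics, and which OXTR bases the siRNA targets is not stated in the labels. The comparison asks what changed after OXTR was knocked down. The choice of the 10 genes was made with results of this comparison known. Their own changes and threshold calls are therefore a description and no evidence about the group.

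Aldo-keto reductases are soluble enzymes that use NADPH to reduce aldehydes and ketones, including sugars, steroids and reactive products of lipid oxidation. Glutathione transferases join the tripeptide glutathione to electrophiles, which makes these easier to export. UGDH oxidises UDP-glucose to UDP-glucuronate, the donor that glucuronosyltransferases attach to drugs and hormones. Several genes of these families are known targets of NRF2, a transcription factor released from KEAP1 under oxidative or electrophilic stress.

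Expression is given in FPKM, fragments normalised both to transcript length and to the mapped fragments of the library, so levels of different genes can be set side by side. The targeted gene matched the labels: OXTR averaged 39.1 ± 0.257 FPKM under siControl against 4.92 ± 0.371 FPKM under siOXTR (SD, n = 3 each). The FPKM of a library summed to between 417829 and 459595, sequencing depth was unknown, and the precision of each value is therefore shown only by the spread between libraries. Nothing in the labels says whether the libraries of one group were grown as separate cultures, and the p-values below cover no more than the library-to-library spread, part or all of which may be technical. An exact test of 3 against 3 libraries could give no p below 0.1. The keratin genes KRT8, KRT18 and KRT19 were abundant (1701 to 2877 FPKM in siControl), whereas the gastric markers MUC5AC, CLDN18 and GKN1 were at most 0.0967 FPKM in the mean of either group. In siOXTR the keratins averaged 3157, 2439 and 2041 FPKM, and of these KRT19 was past the threshold of the test below, though not after trimmed-mean scaling. The epithelial surface markers EPCAM and CDH1 fell, EPCAM from 291 ± 17.2 to 145 ± 7.78 FPKM and CDH1 from 76.1 ± 3.28 to 20.0 ± 0.243 FPKM. The summed fibroblast markers were at 1.62 to 2.02 FPKM in siControl and 0.61 to 0.81 FPKM in siOXTR. The summed blood and endothelial markers were at 8.90 to 10.33 and 8.35 to 9.21 FPKM, of which CD68 averaged 8.61 and 7.40 FPKM and PTPRC 0.757 and 1.23 FPKM. The part of these other markers in the results was not tested. In RNA from whole cultures, fewer cells of a type and less RNA per cell cannot be told apart.

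In siControl the 10 genes spanned a range from GSTP1 at 547 FPKM, which ranked 99th of all genes, to AKR1B10 at 0.400 FPKM. The order was GSTP1, MGST1, GSTO1, AKR1B1, UGDH, GSTZ1, AKR1C3, AKR1C1, AKR1C2 and AKR1B10. From GSTP1 down to AKR1C3 no neighbours overlapped in their siControl libraries. AKR1C3, AKR1C1, AKR1C2 and AKR1B10 each overlapped with the next in order. In siOXTR the first 7 genes kept their places, and AKR1B10 moved ahead of AKR1C2 and AKR1C1.

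**Figure D1:**
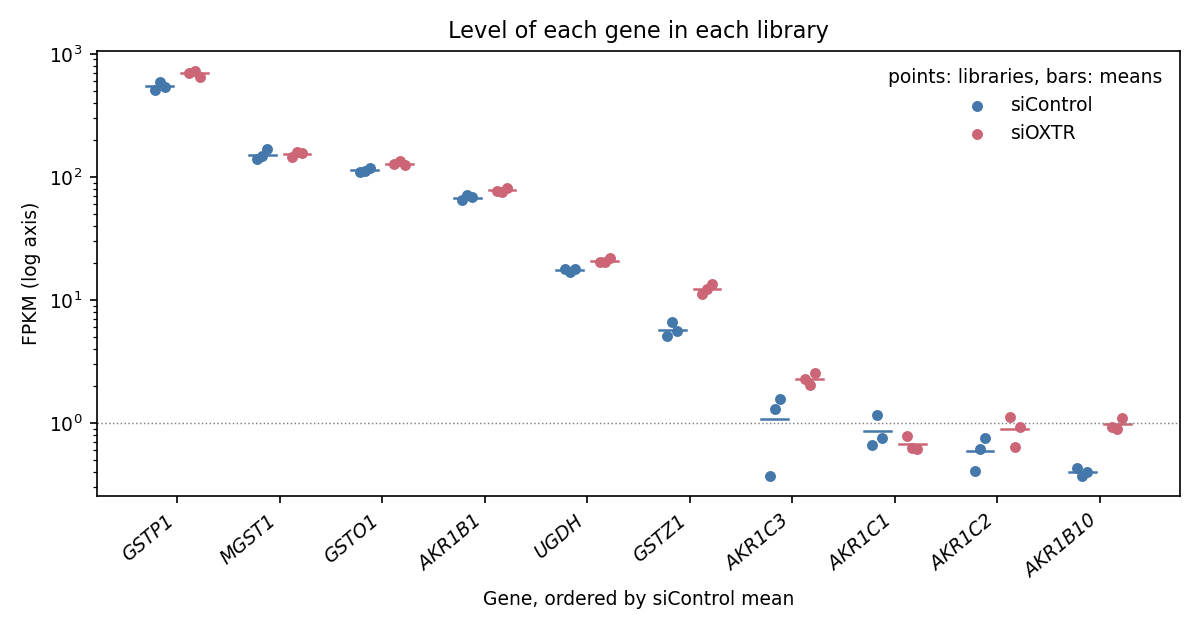
FPKM (log axis) of each of the 10 genes in each library, with siControl in blue and siOXTR in red; points are libraries, short bars are means of 3 and the dotted line marks 1 FPKM. GSTZ1 and AKR1B10 show the clearest separation of the groups, and the siControl points of AKR1C3 spread from 0.37 to 1.58 FPKM.

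AKR1B1 encodes aldose reductase, which turns glucose into sorbitol in the polyol pathway, and lies on chromosome 7 from 134442350 to 134459284 (GRCh38). Under siControl its libraries read 64.51, 70.66 and 68.39 FPKM, and under siOXTR 76.69, 75.76 and 81.78 FPKM. Every siOXTR library was above every siControl library, with means of 67.9 ± 3.11 and 78.1 ± 3.24 FPKM. The ratio of means was 1.15, and the log2 fold change of FPKM + 1 was 0.20 (SE 0.055). That value is close to the median of all 11550 tested genes, 0.13 on the same scale.

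AKR1B10, a retinal and lipid aldehyde reductase gene often raised in cancers, is the next aldo-keto reductase gene on the chromosome, from 134527592 to 134541408. Under siControl the libraries read 0.43, 0.37 and 0.40 FPKM and under siOXTR 0.93, 0.90 and 1.1 FPKM, a ratio of means of 2.44. Both groups were narrow and did not overlap, but the gene stayed under the mean of 1 FPKM required for the fit over all genes. Of the 50-base windows of its coding sequence, 28.4% are also found in transcripts of AKR1B15 or of a pseudogene. AKR1B15, its near copy, averaged 6.41 ± 0.273 FPKM under siControl against 6.77 ± 1.02 FPKM under siOXTR. No label says how reads were divided between such copies, so the low AKR1B10 values are uncertain.

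AKR1C1, AKR1C2 and AKR1C3, which reduce steroid hormones such as progesterone, dihydrotestosterone and androstenedione and also act on prostaglandins, lie side by side on chromosome 10 between 4963253 and 5107686. Their coding sequences are shown because the copies are so alike that short reads cannot always be assigned to one of them. The lines below give the first 120 coding bases from GENCODE release 29, 5′ to 3′, with capitals at bases that differ from AKR1C1.
AKR1C1: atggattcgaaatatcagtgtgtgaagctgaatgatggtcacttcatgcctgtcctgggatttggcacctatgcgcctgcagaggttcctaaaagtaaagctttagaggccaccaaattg
AKR1C2: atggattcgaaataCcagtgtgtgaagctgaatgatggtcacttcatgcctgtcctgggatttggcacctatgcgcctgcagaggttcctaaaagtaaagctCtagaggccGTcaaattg
AKR1C3: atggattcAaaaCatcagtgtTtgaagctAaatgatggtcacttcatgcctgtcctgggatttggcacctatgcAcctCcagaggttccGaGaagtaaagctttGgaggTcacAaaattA
Within this stretch AKR1C2 differs from AKR1C1 at 4 bases and AKR1C3 at 12. Over all 972 coding bases AKR1C1 and AKR1C2 are 98.0% identical, with 19 mismatches, and AKR1C3 is 91.9% identical to AKR1C1 and 91.3% to AKR1C2. Windows of 50 bases shared with transcripts of another gene made up 54.5% of AKR1C1, 57.2% of AKR1C2 and 23.0% of AKR1C3. With windows of 100 bases these shares were 21.0%, 26.7% and 9.7%. The 250 bases before the AKR1C1 start also share an unbroken run of 245 bases with those before the AKR1C2 start (RefSeq, GRCh38.p14).

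The 3 AKR1C genes were low and differed in pattern. AKR1C3 held 0.37, 1.30 and 1.58 FPKM in siControl and 2.26, 2.05 and 2.57 FPKM in siOXTR. All siOXTR libraries were higher, and siControl replicate 1 was far below the other siControl libraries. The ratio of means was 2.12, and the log2 fold change of FPKM + 1 was 0.71 (SE 0.217), or 0.43 without siControl replicate 1. AKR1C1 held 0.66, 1.16 and 0.75 FPKM in siControl and 0.78, 0.63 and 0.61 FPKM in siOXTR, and the groups overlapped. AKR1C2 held 0.41, 0.61 and 0.76 FPKM in siControl and 1.12, 0.64 and 0.93 FPKM in siOXTR, with overlap as well. At these levels, and with reads that the copies can share, the separate values of AKR1C1 and AKR1C2 are uncertain.

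GSTP1, the pi-class transferase that is the main glutathione transferase of many epithelial tumours, lies on chromosome 11 from 67583595 to 67586656. Under siControl its libraries read 507.52, 593.11 and 539.30 FPKM, and under siOXTR 702.02, 725.43 and 651.73 FPKM. The lowest siOXTR library was above the highest siControl library, with means of 547 ± 43.3 and 693 ± 37.7 FPKM and a ratio of 1.27. Its log2 fold change was 0.34 (SE 0.068).

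GSTZ1, the zeta-class enzyme that isomerises maleylacetoacetate in tyrosine breakdown, had the highest log2 fold change of FPKM + 1 of the 7 tested genes, although the ratio of means was larger for AKR1B10, and with a pseudocount of 0.1 the log2 fold change of AKR1C3 (1.21) was above that of GSTZ1 (1.09). It lies on chromosome 14 from 77320884 to 77331597. Under siControl its libraries read 5.08, 6.63 and 5.56 FPKM, and under siOXTR 11.13, 12.38 and 13.44 FPKM. The groups were far apart, with means of 5.76 ± 0.793 and 12.3 ± 1.16 FPKM and a ratio of 2.14. Its log2 fold change of 0.98 (SE 0.09) ranked 11th from the top among all tested genes.

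GSTO1, an omega-class transferase with thioltransferase activity, lies on chromosome 10 from 104235356 to 104267459. Its libraries held 109.44, 112.56 and 117.37 FPKM in siControl and 127.22, 133.63 and 124.71 FPKM in siOXTR. These groups did not overlap either, but the ratio of means was 1.14 and the log2 fold change 0.18 (SE 0.053), little above the median of all tested genes.

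MGST1, a transferase anchored in the membranes of the endoplasmic reticulum and mitochondria, lies on chromosome 12 from 16347142 to 16609259. Under siControl its libraries read 139.99, 146.62 and 169.66 FPKM, and under siOXTR 143.95, 160.03 and 155.99 FPKM. The groups overlapped, with means of 152 ± 15.6 and 153 ± 8.37 FPKM and a log2 fold change of 0.015 (SE 0.072). MGST1 was the one tested gene of the 10 whose groups overlapped.

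UGDH, the dehydrogenase that makes UDP-glucuronate, lies on chromosome 4 from 39498755 to 39528311. It held 17.93, 16.78 and 17.78 FPKM in siControl and 20.31, 20.21 and 21.88 FPKM in siOXTR. All siOXTR libraries were higher, at a ratio of means of 1.19 and a log2 fold change of 0.24 (SE 0.057).

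Of the 10 genes, 7 had a mean of at least 1 FPKM and entered the fit over 11550 genes (limma on log2(FPKM + 1), Benjamini-Hochberg adjusted p under 0.05). In that fit 6 of the 7 were past the threshold, all of them higher in siOXTR, where 59.8% of all tested genes changed, 42.2% higher and 17.6% lower. The groups did not overlap in the same 6 genes, against 64.4% of all tested genes, of which those with every siOXTR library higher were 45.2% of all and those with every siOXTR library lower 19.2%. These counts describe genes chosen with this contrast in view and are no evidence about the group. Small differences turned on how the libraries were scaled. As deposited, 4869 tested genes were higher and 2036 lower, and after trimmed-mean scaling 2273 were higher and 2790 lower, with a shift of -0.11 in the median log2 fold change. After that scaling 2 of the 7, GSTZ1 (0.87, SE 0.09) and GSTP1 (0.22, SE 0.07), were past the threshold, where 43.8% of all tested genes changed, 19.7% higher and 24.2% lower. AKR1B1, GSTO1 and UGDH then had log2 fold changes of 0.077, 0.059 and 0.12, AKR1C3 of 0.63, and MGST1 of -0.11.

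**Figure D2:**
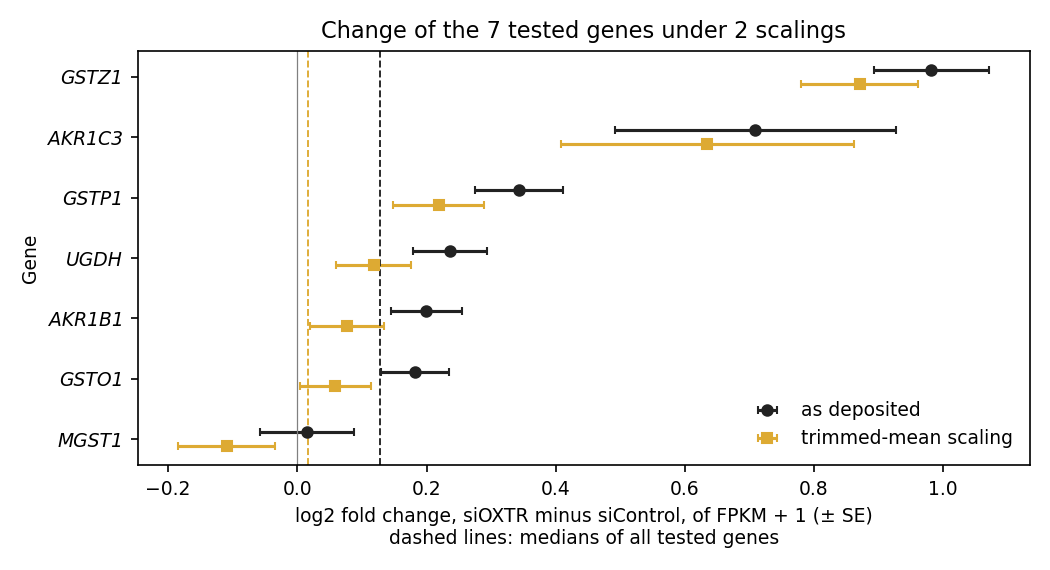
Log2 fold change (siOXTR minus siControl, of FPKM + 1, with SE) of the 7 tested genes as deposited (black circles) and after trimmed-mean scaling (yellow squares); dashed lines are the medians of all tested genes, 0.13 and 0.016. All tested genes but MGST1 lie to the right of both medians, with GSTZ1, AKR1C3 and GSTP1 furthest, and MGST1 lies to the left of both.

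Shares within a family do not depend on how a library is scaled. GSTP1 made up 62.6 ± 1.35% of the summed FPKM of 13 soluble glutathione transferase genes in siControl and 62.4 ± 1.31% in siOXTR (SD, n = 3 each), with overlapping libraries. The GSTZ1 share was 0.658 ± 0.0524% and 1.11 ± 0.13%, with no overlap. GSTO1 had the smaller share in siOXTR, with 12.18% to 13.46% in siControl and 11.51% to 11.66% in siOXTR. Among 15 aldo-keto reductase family genes AKR1B1 held 45.41% to 45.90% in siControl and 41.88% to 44.24% in siOXTR. AKR1A1, an aldehyde reductase gene outside the 10, held 18.55% to 20.81% and 22.69% to 23.07%. The AKR1C3 share averaged 0.718% and 1.26%, and that of AKR1B10 0.270% and 0.538%. Among 5 genes of the MGST family, MGST1 held 60.31% to 63.77% in siControl and 57.91% to 59.20% in siOXTR.

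**Figure D3:**
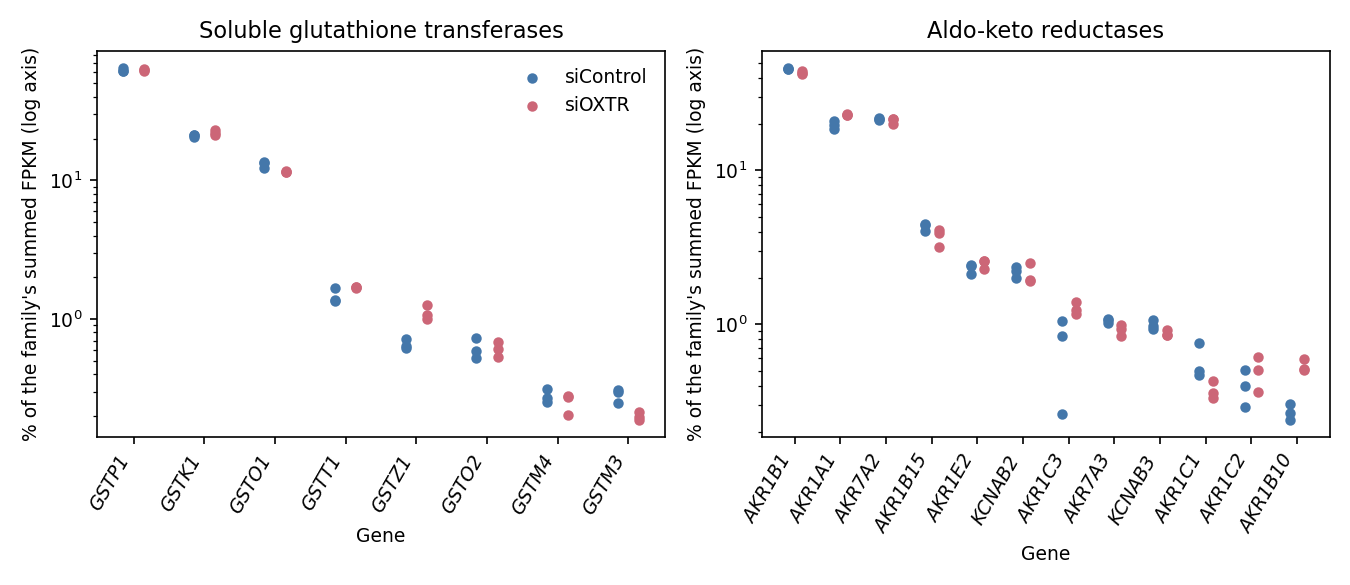
Share of the family's summed FPKM (percent, log axis) in each library for 8 soluble glutathione transferase genes (left) and 12 aldo-keto reductase genes (right), siControl in blue and siOXTR in red. GSTP1 and AKR1B1 lead their families in every library. The shares of GSTZ1, GSTT1, AKR1B10, AKR1A1 and AKR1C3 are higher in all siOXTR libraries than in any siControl library. Those of GSTO1, GSTM3, AKR1B1, AKR7A3, KCNAB3 and AKR1C1 are lower in all siOXTR libraries.

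Promoters are shown for the soluble transferases GSTP1, GSTO1 and GSTZ1 to let the upstream sequence be read beside their changes. Those of MGST1, the transferase whose groups overlapped, are not shown. GSTP1 and GSTO1 are the 2 of the 9 matched genes with an antioxidant response element core, the letters to which NRF2 binds, and GSTZ1 is shown beside them for its ratio of 2.14. The GENCODE gene intervals given above begin earlier than the RefSeq starts used here. The windows therefore lie partly (GSTP1, GSTZ1) or wholly (GSTO1) inside those intervals. Each line gives the 250 bases before a RefSeq start (GRCh38.p14), 5′ to 3′ on the strand of the gene, with motif matches in capitals: GSTP1 at chr11:67583562-67583811, GSTO1 at chr10:104254642-104254891 and GSTZ1 at chr14:77320786-77321035, all on the plus strand.
GSTP1: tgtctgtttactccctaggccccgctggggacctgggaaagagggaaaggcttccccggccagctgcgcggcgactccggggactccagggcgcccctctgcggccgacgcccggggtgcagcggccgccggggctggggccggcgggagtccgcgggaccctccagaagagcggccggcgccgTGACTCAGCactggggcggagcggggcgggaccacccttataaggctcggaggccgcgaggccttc
GSTO1: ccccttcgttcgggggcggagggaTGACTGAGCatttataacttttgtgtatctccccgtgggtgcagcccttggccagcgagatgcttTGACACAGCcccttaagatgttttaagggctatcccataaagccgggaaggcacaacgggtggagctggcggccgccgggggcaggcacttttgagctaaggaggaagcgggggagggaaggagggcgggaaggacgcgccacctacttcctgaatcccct
GSTZ1: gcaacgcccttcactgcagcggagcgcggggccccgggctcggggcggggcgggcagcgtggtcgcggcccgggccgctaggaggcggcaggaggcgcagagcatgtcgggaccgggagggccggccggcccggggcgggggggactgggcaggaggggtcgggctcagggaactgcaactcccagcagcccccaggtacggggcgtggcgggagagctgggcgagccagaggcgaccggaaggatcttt
The motif searched was TGACNNNGC on both strands, found in 10.9% of 35116 RefSeq promoters of this length. Counted per start, as that share is, the 9 genes had it at 2 of 13 starts. GSTP1 has 1 match, which begins at position -66 relative to the start site and overlaps a match to the AP-1 motif TGANTCA, found in 6.6% of promoters. GSTO1 has 2 matches, which begin at -226 and -161. The ATF4 composite element TGATGNAA, found in 3.1% of promoters, had no match in the windows of the 9 genes. Between them the 9 genes have 13 listed starts, and AKR1B10 was not matched. A match describes letters in this window only, and GSTZ1, AKR1B1, the AKR1C genes, MGST1 and UGDH had none for any of the 3 motifs.

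Of 7 other aldo-keto reductase genes tested, 3 rose and none fell (adjusted p under 0.05 in limma), close to the 42.2% of all tested genes that were higher. After trimmed-mean scaling 2 were higher, where 19.7% of all tested genes were. Their median log2 fold change was 0.17. AKR1A1 rose from 29.2 ± 1.16 to 41.5 ± 1.23 FPKM (log2 fold change 0.49, adjusted p = 1.14e-05). AKR1E2 rose by 0.31 on the log2 scale, and so did AKR7A2, an aflatoxin aldehyde reductase gene, by 0.25, although AKR7A2 did not pass after trimmed-mean scaling (0.13, adjusted p = 0.0871, limma). KCNAB2, a potassium channel subunit of this fold, was at 3.28 and 3.83 FPKM and AKR1B15 as given above, and neither passed.

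Among 5 tested soluble glutathione transferases beyond the 10 genes, 3 rose and none fell, and 2 were higher after trimmed-mean scaling. Of all tested genes, 42.2% were higher as deposited and 19.7% after that scaling. GSTK1, the kappa-class enzyme of mitochondria and peroxisomes, rose from 183 ± 8.42 to 246 ± 10.0 FPKM (log2 fold change 0.42, adjusted p = 5.94e-05, limma). GSTT1, of the theta class, rose from 12.7 ± 0.991 to 18.8 ± 0.667 FPKM (0.53, adjusted p = 2.79e-05, limma). GSTO2 had overlapping groups, at 5.35 ± 0.595 and 6.76 ± 0.74 FPKM, and passed with an adjusted p of 0.0132 (limma), but not after trimmed-mean scaling or without siControl replicate 2, siOXTR replicate 2 or siOXTR replicate 3 (adjusted p = 0.0571, 0.0502 and 0.0579). GSTM3 and GSTM4 averaged under 3 FPKM in both groups and did not pass, though GSTM4 did without siOXTR replicate 1 (0.25, adjusted p = 0.0411, limma).

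In the MGST family PTGES, which encodes a glutathione-dependent prostaglandin E synthase, rose from 8.06 ± 0.832 to 11.6 ± 1.39 FPKM (log2 fold change 0.47, adjusted p = 0.000777, limma). MGST3 was at 63.4 ± 0.526 and 70.1 ± 4.72 FPKM, and its adjusted p of 0.0481 was lost in 5 of the 6 fits that left out 1 library, all but the one without siOXTR replicate 1, and under all 3 scalings (log2 fold change 0.14 as deposited, 0.017 after trimmed-mean scaling). MGST2 averaged 22.9 FPKM under siControl, 25.8 under siOXTR, and did not pass, though it was past the threshold without siControl replicate 3 or siOXTR replicate 1 (adjusted p = 0.0435 and 0.0146, limma).

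Genes that use or carry UDP-glucuronate had lower values where they changed, unlike UGDH. Of 7 tested, 4 fell and none rose, with a median log2 fold change of -0.27, where 17.6% of all tested genes were lower as deposited. GUSB, the lysosomal enzyme that removes glucuronate, fell from 54.7 ± 2.00 to 27.5 ± 1.25 FPKM (log2 fold change -0.97, adjusted p = 2.97e-08, limma). UXS1, the Golgi enzyme that turns UDP-glucuronate into UDP-xylose, fell from 39.9 ± 2.74 to 23.2 ± 0.749 FPKM. HAS2, a hyaluronan synthase of the plasma membrane, fell from 1.84 ± 0.116 to 0.953 ± 0.0833 FPKM (log2 fold change -0.54). SLC35D1, a carrier of UDP-glucuronate into the endoplasmic reticulum, fell from 2.16 ± 0.335 to 1.61 ± 0.095 FPKM (-0.27). Both were low, and with a filter of mean FPKM at least 5 the list kept 2 lower genes. The SLC35D1 call was lost without siControl replicate 1 or siOXTR replicate 1 (adjusted p = 0.0773 and 0.0604, limma). UGP2, which makes the UDP-glucose that UGDH uses, averaged 42.1 FPKM under siControl, 46.4 under siOXTR, and did not pass, though it did without siControl replicate 3 or siOXTR replicate 1 (adjusted p = 0.0179 and 0.0379, limma). UGT1A6, the single gene above 1 FPKM among the UGT1A, UGT2A and UGT2B genes listed, was at 27.8 ± 2.33 and 29.2 ± 0.73 FPKM. It missed the threshold and shares exons with the other UGT1A genes.

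Of 12 tested genes that make, recycle or break down glutathione, 10 were higher and 1 lower (GGT7), with a median log2 fold change of 0.34. After trimmed-mean scaling 6 were higher and 1 lower. The shares of all tested genes that were higher were 42.2% as deposited and 19.7% after that scaling. GCLC and GCLM, the catalytic and modifier subunits of the rate-limiting ligase, rose from 47.6 ± 2.06 to 75.8 ± 2.32 FPKM (adjusted p = 7.09e-07, limma) and from 14.8 ± 1.41 to 22.4 ± 0.286 FPKM (adjusted p = 2.09e-05, limma). SLC3A2, a subunit of the cystine transporter, rose by 0.44 on the log2 scale. CHAC1, which degrades glutathione and is a target of the ATF4 stress pathway, rose from 1.19 ± 0.352 to 2.78 ± 0.146 FPKM. CHAC2 averaged 5.68 FPKM under siControl, 6.30 under siOXTR, and did not pass.

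Of 6 tested pumps for glutathione conjugates, 2 were lower and none higher, where 17.6% of all tested genes were lower and 42.2% higher. After trimmed-mean scaling 3 were lower, where 24.2% of all tested genes were lower. ABCC1 fell from 25.4 ± 1.55 to 12.9 ± 1.07 FPKM (log2 fold change -0.93, adjusted p = 3.29e-07, limma) and ABCC4 from 1.73 ± 0.0577 to 0.643 ± 0.111 FPKM. ABCC3 averaged 15.1 FPKM under siControl, 14.6 under siOXTR, and missed the threshold as deposited, but was lower after trimmed-mean scaling (-0.17, adjusted p = 0.0475, limma).

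Other enzymes that clear carbonyls and quinones rose in 16 of 21 cases and fell in 2, with a median log2 fold change of 0.32. After trimmed-mean scaling 11 were higher and 3 lower. Among all tested genes 42.2% were higher as deposited and 19.7% after that scaling. NQO1, a quinone reductase gene, rose from 198 ± 7.92 to 320 ± 4.02 FPKM (adjusted p = 4.09e-07, limma). The retinaldehyde dehydrogenase genes ALDH1A1 and ALDH1A3 rose from 20.8 to 31.1 and from 171 to 246 FPKM. EPHX1, the epoxide hydrolase of the endoplasmic reticulum membrane, fell from 18.6 ± 0.812 to 11.9 ± 0.482 FPKM. PTGR1 was at 71.9 and 71.6 FPKM, and GLO1, glyoxalase, at 115 ± 8.52 and 107 ± 4.81 FPKM, and neither passed as deposited. GLO1 was lower after trimmed-mean scaling (-0.23, adjusted p = 0.0132, limma).

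The pathway neighbours of GSTZ1 and AKR1B1 were few. Of the tyrosine breakdown genes only FAH, which encodes the enzyme after GSTZ1, was tested, and it rose from 20.6 ± 0.64 to 24.5 ± 0.26 FPKM (log2 fold change 0.24), but not past the threshold after trimmed-mean scaling (0.12, adjusted p = 0.0906, limma). SORD, which oxidises the sorbitol made by AKR1B1, was at 16.2 ± 0.165 and 18.2 ± 0.79 FPKM (0.16, adjusted p = 0.0236, limma), a call lost after trimmed-mean scaling (0.045) and without siOXTR replicate 2 or siOXTR replicate 3 (adjusted p = 0.119 and 0.0687). The hexokinase genes HK2 and HK1, which compete with AKR1B1 for glucose, fell by 0.63 and 0.17. The HK1 call was lost without siControl replicate 1, siControl replicate 2 or siOXTR replicate 2 (adjusted p = 0.0574, 0.0583 and 0.0964, limma). KHK, ketohexokinase, was at 1.44 ± 0.286 and 1.07 ± 0.159 FPKM and missed the threshold as deposited, but was lower after trimmed-mean scaling (-0.30, adjusted p = 0.0274, limma).

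Of 15 tested NRF2 regulators and core targets, 11 were higher and 2 lower, and after trimmed-mean scaling 10 were higher and 2 lower, where 42.2% and 19.7% of all tested genes were higher as deposited and after that scaling. HMOX1 rose from 14.1 ± 0.373 to 41.2 ± 2.34 FPKM, OSGIN1 2.08-fold and SQSTM1 1.62-fold, while NFE2L1, a related factor held in the endoplasmic reticulum membrane, fell 2.46-fold. MAFF and MAFK, small partners of NRF2, did not pass, and MAFF did without siOXTR replicate 3 (0.20, adjusted p = 0.0449, limma).

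**Figure D4:**
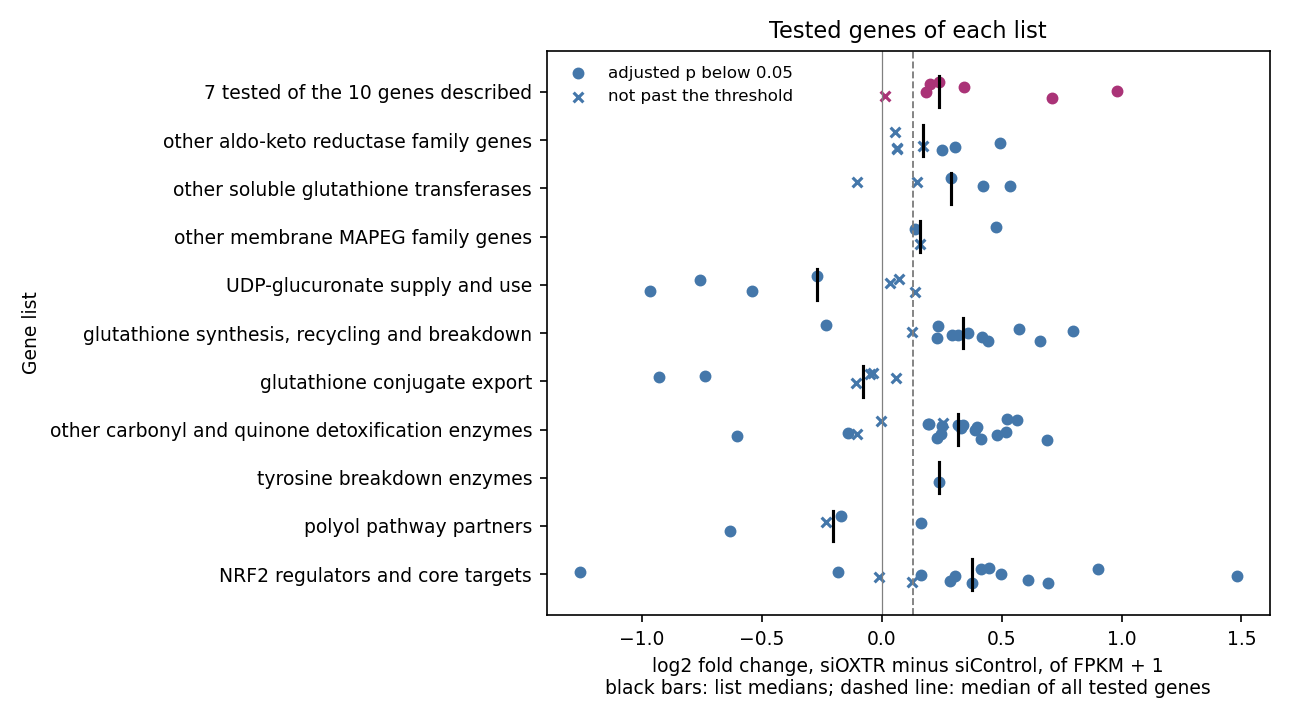
Log2 fold change (siOXTR minus siControl, of FPKM + 1) of every tested gene in each list, with the 7 tested of the 10 genes in purple; circles are past an adjusted p of 0.05, crosses are not, black bars are list medians and the dashed line is the median of all tested genes, 0.13. The lists for glutathione synthesis, for carbonyl and quinone detoxification and for NRF2 have medians of 0.34, 0.32 and 0.38. Those for UDP-glucuronate, polyol pathway partners and conjugate export have medians of -0.27, -0.20 and -0.08.

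Genes with the most similar profiles were taken as those with the smallest Euclidean distance between centred log2(FPKM + 1) values over the 6 libraries, out of 9019 other genes averaging 5 FPKM or more. For GSTZ1 these were H2BC9, a histone gene with close copies (distance 0.264), and S100P, a calcium-binding protein gene (0.267). The nearest to GSTP1 were SPHK2 (0.0439) and TAF10 (0.0498), and to GSTO1 they were RAB11A (0.0282) and PPIA (0.0311). AKR1B1 was closest to DALRD3 (0.0439) and CLPX (0.0442), and UGDH to EIF2B5 (0.0341) and NEPRO (0.0488). MGST1 was closest to NDUFAF2 (0.0529) and MRPL39 (0.0604), which encode mitochondrial proteins. The distances were largest for AKR1C3, with RBM14-RBM4 at 0.317 and MDP1 at 0.335.

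Leaving out single libraries changed the 7 tested genes to different degrees. GSTZ1, GSTP1, AKR1B1 and UGDH were past the threshold in all 6 such fits. GSTO1 was past it in 5 and missed it without siOXTR replicate 2 (log2 fold change 0.15). AKR1C3 was past it in 3 and missed it without any one of the siOXTR libraries (log2 fold changes of 0.71, 0.76 and 0.65 without replicates 1, 2 and 3). MGST1 was past it in none. These fits reuse the libraries whose results were known when the genes were chosen, so they describe spread and are no further evidence.

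**Figure D5:**
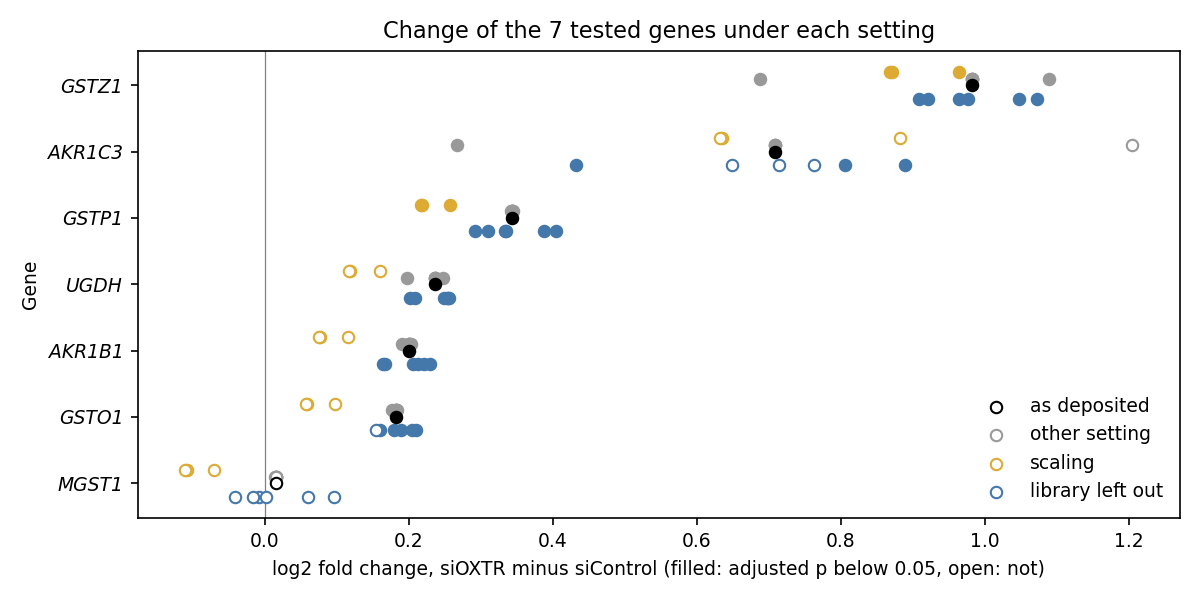
Log2 fold change (siOXTR minus siControl) of the 7 tested genes under each of the 15 alternative settings and as deposited (black); filled points are past an adjusted p of 0.05 and open points are not. GSTZ1 and GSTP1 are filled throughout, AKR1B1, GSTO1 and UGDH turn open under the 3 scalings (yellow), and AKR1C3 moves most with the setting.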

How the data were processed

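RNA from 3 siControl and 3 siOXTR libraries was measured. The authors deposited FPKM, per the file headers, written to 2 decimals. Total RNA was taken with Trizol and sequenced as BGISEQ-500 libraries, per the labels' protocols. The submitters' processing notes name GRCh38.p13, and no aligner, quantifier or annotation is named in the sources used here.

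Groups were taken from the sample titles. Low values were searched for the steps of whole fragments, but the best coherence was 0.151 to 0.209, where 1 would mark exact steps. Depth is therefore unknown, and no count model was used. The log2(FPKM + 1) values of genes averaging 1 FPKM or more were modelled in limma 3.58.1, under R 4.3.3 (group as the only term, trended and robust variance prior, two-sided), with Benjamini-Hochberg adjustment over 11550 genes. The fit was tested on simulated data. In those a small part of the genes changed, evenly up and down, with no scale difference between libraries. That test therefore cannot say how far the calls depend on scaling. On that scale the changes of weakly expressed genes come out too small. Ratios are of mean FPKM.

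The members and the 10 gene lists were chosen with earlier results of these data known. From each list up to 4 genes past the threshold with the largest change, and up to 2 others with the highest mean, were named; GGT7 was named after its value was seen, and 1 gene the rule picks is not reported here. Alternatives were 2 pseudocounts, 2 filters, 3 scalings, a replicate block, a prior with neither trend nor robust setting and leaving out each library. Trimmed-mean scaling used ratios to siControl replicate 1 without the outer 30% of ratios and 5% of levels on each side. Gene positions and coding sequences are from GENCODE release 29 and promoters from RefSeq. Protein sequences were not used here.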

Additional observations from a re-analysis of the deposited data

How the results depend on the processing

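The number of changed genes was 6905 of 11550 tested and ranged from 5042 to 7205 over the 15 alternatives, which tested between 9025 and 17283 genes. Of the 7 members tested as deposited 6 changed, where 59.8% of all tested genes did. After trimmed-mean scaling 2 of the members changed, where 43.8% of all tested genes did. After median-of-ratios scaling 2 changed, where 5042 of 11544 tested genes did. After scaling each library to the same total 3 changed, GSTZ1, GSTP1 and AKR1B10, the last of which passed the filter on low values there and not as deposited. In that fit 5457 of 12421 tested genes changed. Leaving out 1 library gave 4 to 6 changed members, where 5809 to 6691 of 11536 to 11554 tested genes changed. With a pseudocount of 0.1 AKR1C3 had a log2 fold change of 1.21 and was not past the threshold, and with one of 5 it had 0.27. Without a filter AKR1B10 was tested (log2 fold change 0.50, SE 0.058), and 7 of the 10 members changed, where 6764 of 17283 tested genes did. The other pathway genes gave 60 changed genes as deposited and 48 to 64 otherwise.

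The sign turned for genes that did not pass in any of these fits. MGST1 was at -0.11 after trimmed-mean and median-of-ratios scaling, at -0.071 after scaling to a total, and between -0.042 and 0.096 with 1 library left out (-0.0088 without siControl replicate 2, -0.016 without siOXTR replicate 2). Under these 3 scalings in the same order AKR1B15 was at -0.047, -0.048 and -0.015 and UGT1A6 at -0.051, -0.053 and -0.014. With 1 library left out the range was -0.0065 to 0.18 for AKR1B15, -0.015 to 0.013 for PTGR1 (0.012 without siControl replicate 2) and -0.059 to 0.036 for MAFK (0.029 without siControl replicate 3).

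Replicate numbers are shared between the groups, but deviations of same-numbered libraries correlated at 0.107, 0.0042 and 0.16, and not every library correlated best with its own number, so the numbers were not taken as pairs. The replicate block gave 7205 changed genes of 11550 tested, 6 changed members and 64 other pathway genes. Of the named genes, MGST2 (adjusted p = 0.0264, limma), UGP2 (0.0443) and KHK (0.0377) were past the threshold with the block and not without it, and KHK also with a prior without trend (0.0441). Depth was unknown, so differences among genes near 1 FPKM, as in the AKR1C genes and AKR1B10, rest on the spread of 3 libraries alone.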
